A study of Arabidopsis thaliana with 6 samples.

Results

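The pericentromeres of Arabidopsis thaliana were examined here as 10 kb bins, together with the H3K27me3 regions that lie within them. The intervals were 11.5 to 17.7 Mb on chromosome 1, 1.1 to 7.2 Mb on chromosome 2, 10.3 to 17.3 Mb on chromosome 3, 1.5 to 6.3 Mb on chromosome 4 and 9 to 16 Mb on chromosome 5 of the TAIR10 genome, 31.1 Mb in all. A bin was kept when each of the 2 input libraries held at least 50 reads in it. Of 3110 pericentromeric bins 2976 were kept, out of 11748 bins kept in the whole genome. The kept bin nearest to the threshold had 74 reads in the brm input and 50 in the wt input, and the nearest bin left out had 84 and 49. The 8772 kept bins of the chromosome arms served for comparison.

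Plants homozygous for brm-1, a T-DNA insertion allele of BRAHMA (BRM) in the Col background, are called brm here and were compared with wild-type Col (wt). BRM is a SWI/SNF ATPase, an enzyme that slides or evicts nucleosomes. Both genotypes were sampled as whole 14-day-old seedlings grown on agar plates in long days, with 2 H3K27me3 ChIP-seq libraries from independent biological replicates and 1 input library each. A seedling pools all its organs and cell types, so more cells that carry the mark and more mark per cell cannot be told apart. The insertion is present in every cell of the plant throughout its life.

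Pericentromeres flank the centromeric satellite arrays. In Arabidopsis they are rich in transposons and pseudogenes packed into heterochromatin with DNA methylation and H3K9me2, and poor in active genes. H3K27me3 is set by Polycomb repressive complex 2 and is known mainly as a mark of silent protein-coding genes in euchromatin. SWI/SNF remodellers of the Trithorax group are known as antagonists of Polycomb proteins.

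The H3K27me3 libraries held 9593473 and 8408612 nuclear reads in brm, and 8563827 and 9051298 in wt. The inputs held 5676681 reads in brm and 6342835 in wt. Reads at distinct positions made up 28.3% and 38.2% of the H3K27me3 libraries in brm and 27.9% and 23.4% in wt, against 80.0% of the brm input and 68.9% of the wt input. The BRM gene itself lies outside the pericentromeres. It had 74.2 RPM in the brm input and 97.1 RPM in the wt input. These values do not check the genotype, since an insertion need not remove sequence. RPM is the number of reads in a feature divided by the nuclear reads of its library and multiplied by 1e+06.

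Sequence windows from 6 of the regions described below are given first, because they show the kinds of DNA on which the mark differed between brm and wt. A region is a stretch of called H3K27me3 islands shared by both replicates of brm or of wt, merged over the genotypes. In each region the 200 bp window with the most reads at distinct positions, summed over the 4 H3K27me3 libraries, was taken from the TAIR10.1 assembly, plus strand. Capitals mark the GA-repeat motif GAGAGA and the telobox-like motif AAACCCTA, searched on both strands, so that TCTCTC and TAGGGTTT also count. Both motifs are known from Polycomb response elements of Arabidopsis.
AT5G33390, chr5:12662401-12662600: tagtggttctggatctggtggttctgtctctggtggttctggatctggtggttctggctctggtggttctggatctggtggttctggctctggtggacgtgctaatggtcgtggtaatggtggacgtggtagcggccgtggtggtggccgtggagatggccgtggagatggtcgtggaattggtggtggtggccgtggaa
AT3G28200, chr3:10518201-10518400: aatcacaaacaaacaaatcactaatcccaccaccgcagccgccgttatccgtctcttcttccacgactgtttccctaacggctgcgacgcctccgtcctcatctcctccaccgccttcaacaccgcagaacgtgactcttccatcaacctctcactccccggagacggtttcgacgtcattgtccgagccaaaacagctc
AT2G15327, chr2:6672401-6672600: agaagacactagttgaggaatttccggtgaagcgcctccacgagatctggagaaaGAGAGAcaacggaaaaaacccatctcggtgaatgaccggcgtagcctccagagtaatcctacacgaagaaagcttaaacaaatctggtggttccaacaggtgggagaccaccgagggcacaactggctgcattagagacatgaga
chromosome 2 telobox window, chr2:3529001-3529200: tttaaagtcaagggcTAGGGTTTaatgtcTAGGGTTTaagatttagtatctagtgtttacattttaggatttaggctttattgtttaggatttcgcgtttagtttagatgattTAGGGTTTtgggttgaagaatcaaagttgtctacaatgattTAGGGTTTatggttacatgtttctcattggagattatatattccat
chromosome 1 region lower in brm, chr1:13603401-13603600: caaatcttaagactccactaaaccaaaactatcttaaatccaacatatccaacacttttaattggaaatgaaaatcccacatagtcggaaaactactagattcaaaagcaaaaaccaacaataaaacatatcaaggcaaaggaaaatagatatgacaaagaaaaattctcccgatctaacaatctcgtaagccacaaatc
AT3G45820, chr3:16840201-16840400: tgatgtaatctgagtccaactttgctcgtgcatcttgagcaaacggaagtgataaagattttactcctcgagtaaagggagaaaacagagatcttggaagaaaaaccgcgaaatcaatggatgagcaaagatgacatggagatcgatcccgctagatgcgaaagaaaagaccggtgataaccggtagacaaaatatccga

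The first 2 windows lie wholly in coding sequence and carried neither motif. The AT5G33390 window had a GC content of 58.5% and held 30 and 33 distinct reads in brm, against 1 and 3 in wt. The AT3G28200 window had a GC content of 55.0%, with 31 and 34 distinct reads in brm and 3 and 7 in wt. Of the AT2G15327 window, 181 of 200 bases were coding, and it carried 1 GAGAGA match. The window on chromosome 2 overlaps no annotated gene and carried 4 telobox-like matches, all as TAGGGTTT. It held 30 and 36 distinct reads in brm and 21 and 9 in wt. The window of the chromosome 1 region is intergenic, with 2 and 5 distinct reads in brm and 14 and 17 in wt. In the AT3G45820 window 151 bases were coding.

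Over such windows of all 780 pericentromeric regions, GAGAGA occurred in 187, or 24.0%, and over those of all 5322 regions in 23.0%. It was found in 14.5% of all 200 bp windows of the pericentromeres and in 17.2% of those of the genome. The telobox-like motif occurred in 37 of the 780 windows, or 4.74%, against 3.87% over all regions, 3.22% of all pericentromeric windows and 2.62% of all windows of the genome. Among the 83 pericentromeric regions found in brm alone, 18 windows held GAGAGA and 5 held the telobox-like motif. These are counts of letters and not of bound sites.

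Pericentromeric bins were poor in H3K27me3 in both genotypes. They took 15.2% and 15.0% of the reads of the H3K27me3 libraries in brm and 14.3% and 14.0% in wt, against 23.1% of the brm input and 22.4% of the wt input. All 4 H3K27me3 libraries lay below both inputs (14.6% ± 0.567, SD, n = 4, against 22.8% ± 0.459, n = 2). The exact two-sided permutation test gave p = 0.0667, the smallest value that 4 against 2 libraries allow. The 95% Wilson intervals, which cover counting error only, were narrow, reaching over 15.14% to 15.19% for brm replicate 1 and over 13.97% to 14.02% for wt replicate 2.

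The share was higher in brm by 0.955 percentage points (15.1% ± 0.0931 in brm and 14.1% ± 0.211 in wt, SD, n = 2 each). Both brm libraries lay above both wt libraries, and the gap exceeded the spread between replicates, but an exact permutation test of 2 against 2 libraries cannot go below p = 0.333, which is the value obtained. The input share was likewise the higher one in brm. Divided by the share of its own input, the pericentromeric share was 0.657 and 0.651 in brm and 0.637 and 0.624 in wt, and the exact test again gave p = 0.333. In the arms the corresponding ratio was 1.103 and 1.105 in brm and 1.105 and 1.109 in wt.

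**Figure D1:**
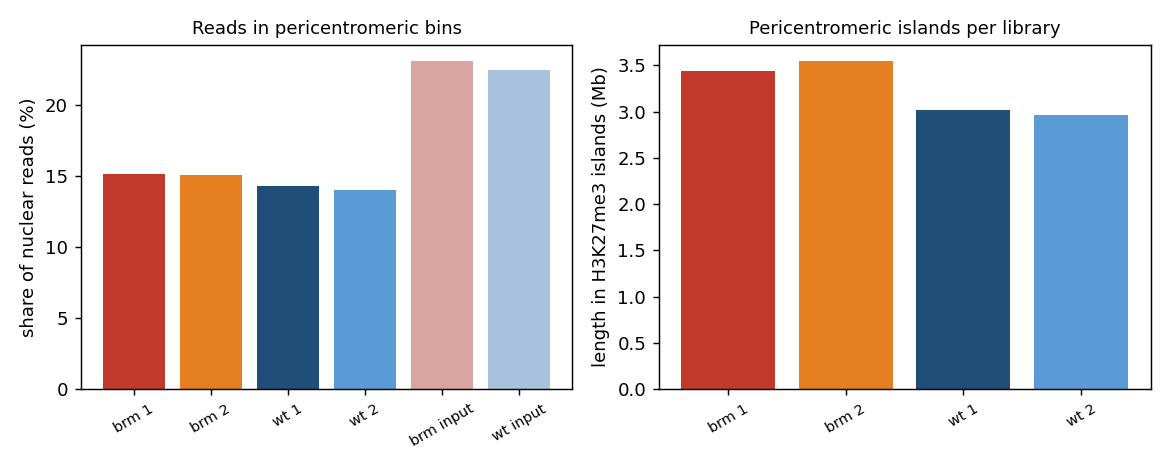
Left, share of nuclear reads that fell in the 2976 pericentromeric bins, in % per library. Right, length of the pericentromeres covered by H3K27me3 islands in each H3K27me3 library, in Mb. The 2 brm libraries stand above the 2 wt libraries in both panels, and the inputs stand above all H3K27me3 libraries in the left one.

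The median input ratio did not show the difference in share. The input ratio of a bin was the log2 of its H3K27me3 RPM over the RPM of the input of the same genotype, with 1 read added to each count. Its median over the pericentromeric bins was -2.28 and -2.40 in brm and -2.28 and -2.35 in wt, so the groups overlapped (exact permutation test, p = 0.667). The arms had medians of -0.77 and -0.78 in brm and -0.84 and -0.83 in wt. In each of the 4 libraries the pericentromeric median was the lower one, by 1.52 ± 0.0773 on average (SD, n = 4, exact sign-flip test, p = 0.125, the smallest that 4 libraries allow). Bins above input made up 22.2% and 22.3% of the pericentromeric bins in brm, against 20.1% and 19.6% in wt. The input ratio at the 95th percentile of the bins was 1.76 and 1.79 in brm and 1.63 and 1.57 in wt. Neither of these measures of the most marked bins overlapped between the genotypes, whereas the medians did. Each of these ratios depends on the 1 input of its genotype, which the share of reads does not.

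The mark was unevenly placed within the intervals. In bins less than 0.5 Mb from the midpoint of an interval the median input ratio was -3.01 and -3.13 in brm and -2.93 and -2.95 in wt. It was -1.02 and -1.08 in brm and -1.32 and -1.17 in wt at 2 to 2.5 Mb, and 0.18 and 0.13 in brm and -0.05 and -0.01 in wt in the outermost 228 bins, 3 to 3.5 Mb from the midpoint. Brm lay below wt in the 2 innermost classes and above wt in the 3 outermost ones, without overlap of the libraries. These ratios rest on the 1 input library of each genotype. Over all pericentromeric bins the difference in the median, -0.029, reversed to 0.030 against the sum of both inputs. That check was not made for the distance classes. These classes pool intervals of unequal length, and the outermost one held 100 bins of chromosome 3, 98 of chromosome 5, 20 of chromosome 1, 10 of chromosome 2 and none of chromosome 4. Within each chromosome the innermost class also had a lower median ratio than the outermost one in each library. On chromosome 4, whose outermost class reached 2 to 2.5 Mb, the ratio there was -1.97 and -1.98 in brm and -1.97 and -1.82 in wt. The order of the genotypes was not the same on every chromosome. In the innermost class brm lay below wt without overlap on chromosomes 3 and 4 only, and at 2 to 2.5 Mb brm lay above wt without overlap on chromosomes 1, 3 and 5 and below it on chromosome 4. Protein-coding genes covered 5.22% of the innermost bins and 48.0% of the outermost ones, whereas pseudogenes covered 43.7% and 6.50%. Common H3K27me3 regions, the stretches found in both replicates of a genotype, covered 0.813% of the innermost bins in brm and 0.553% in wt, and 29.7% of the outermost bins in brm and 25.7% in wt.

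**Figure D2:**
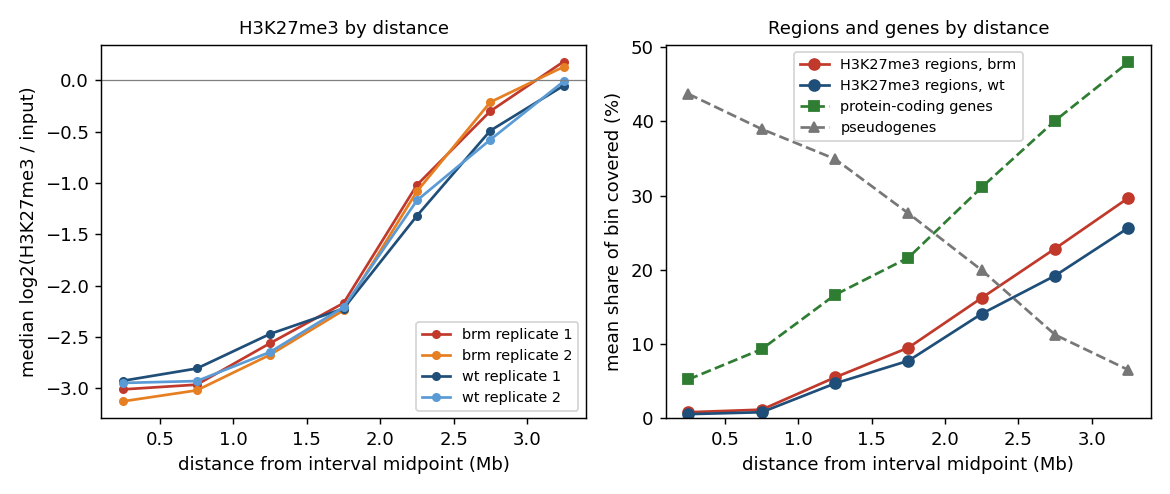
Left, median log2 ratio of H3K27me3 to input against the distance from the midpoint of the interval (Mb, classes of 0.5 Mb), 1 line per library; the grey line marks equality with input. Right, mean share of each bin (%) covered by common H3K27me3 regions in brm and wt, by protein-coding genes and by pseudogenes. The pooled ratio climbs from about -3 near the midpoint to about 0 in the outermost class, which holds no bin of chromosome 4, and coverage by protein-coding genes climbs with it.

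The intervals also differed among chromosomes. Common regions covered 11.4% of the chromosome 1 interval in brm and 10.02% in wt, 12.4% of that of chromosome 3 in brm and 10.4% in wt, and 12.1% of that of chromosome 5 in brm and 10.1% in wt. Coverage was lower on chromosome 2, at 7.51% in brm and 5.97% in wt, and on chromosome 4, at 6.24% in brm and 5.50% in wt. The median input ratio was highest on chromosome 1, at -1.78 and -1.91 in brm and -1.94 and -1.97 in wt. It was lowest on chromosome 4, at -2.60 and -2.76 in brm and -2.50 and -2.59 in wt.

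Bins were next divided by gene content, which their choice did not use, and those without a protein-coding gene had the lowest input ratio in each library. The 1118 bins without a protein-coding gene had a median input ratio of -2.89 and -3.00 in brm and -2.78 and -2.85 in wt. Before division by input the order was the other way. These bins took 1.53% and 1.49% of all H3K27me3 reads in brm and 1.42% and 1.35% in wt. They took 6.53% of the brm input and 5.88% of the wt input. The 1325 bins with protein-coding genes over less than 50% of their length had -1.32 and -1.33 in brm and -1.52 and -1.56 in wt. The 533 bins with genes over at least 50% had -1.38 and -1.49 in brm and -1.48 and -1.54 in wt. In brm they thus lay below the bins with fewer genes, and in wt the libraries of these classes overlapped. Bins without a protein-coding gene took 10.1% and 9.92% of the pericentromeric reads in brm and 9.93% and 9.62% in wt, against 28.3% of those in the brm input and 26.2% in the wt input.

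The mark was concentrated in few bins. Common regions of either genotype were absent from 2097 of the 2976 bins, covered less than 50% of 626 and at least 50% of 253. These 253 bins held 44.0% and 44.5% of the pericentromeric H3K27me3 reads in brm and 44.6% and 44.6% in wt, but 7.86% of the pericentromeric reads of the brm input and 8.57% of the wt input. Their median input ratio was 1.81 and 1.84 in brm and 1.67 and 1.61 in wt, close to the 1.78 and 1.79 in brm and 1.72 and 1.72 in wt of the 1419 equally covered bins of the arms. This class was defined by the same reads and is given as a description. In the edgeR fit described below, which uses no input, the rise in brm was not confined to marked bins. The median log2 fold change was 0.10 in the 2097 bins without a common region, 0.13 in the 626 and 0.08 in the 253.

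The bin with the highest mean input ratio lies on chromosome 1 at 16810001-16820000 and holds AT1G44180, annotated as a peptidase of the M20/M25/M40 family. Its input ratio was 3.01 and 3.04 in brm and 2.97 and 3.09 in wt. The bin on chromosome 5 at 9070001-9080000, with the myrosinase genes TGG1 and TGG2, whose products break down glucosinolates, had 3.09 and 2.9997 in brm and 2.93 and 2.73 in wt. The bin on chromosome 3 at 16530001-16540000 holds the transcription factor genes TCP16 and GATA14 and had 2.81 and 3.03 in brm and 2.64 and 2.86 in wt. The bin on chromosome 5 at 13930001-13940000 holds SAP, annotated as a WD40 repeat-like protein, with 2.64 and 2.68 in brm and 2.79 and 3.08 in wt. The bin on chromosome 3 at 17000001-17010000 holds 2 kinase-like genes, AT3G46270 and AT3G46280, with 2.71 and 2.71 in brm and 2.93 and 2.83 in wt. None of these 5 bins passed the test between genotypes described below, and in RPM their brm and wt libraries overlapped.

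A block of 27 kept bins on chromosome 2, from 3240001 to 3510000, shared 85.9% to 99.3% of its 37-base words with the mitochondrial genome of the assembly. This is the known nuclear insertion of mitochondrial DNA. Its median was 60.2 and 40.3 RPM in the brm H3K27me3 libraries and 56.4 and 40.3 RPM in the wt H3K27me3 libraries, against 1292 RPM in the brm input and 1244 RPM in the wt input. The other 2949 pericentromeric bins had a median of 63.6 RPM in the brm input and 62.3 RPM in the wt input. The 27 bins took 3.42% of the brm input and 3.22% of the wt input. Without them the pericentromeric share was 15.0% and 14.9% in brm and 14.1% and 13.9% in wt, and 19.7% of the brm input and 19.2% of the wt input. Reads from the mitochondrial genome and from the insertion cannot be told apart here.

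A pair of neighbouring bins on chromosome 3, from 14190001 to 14210000, had similarly high input without any mitochondrial word. They hold the annotated 18S and 5.8S ribosomal RNA genes AT3G41768 and AT3G41979. The first had 186 and 199.6 RPM in the brm H3K27me3 libraries and 219.6 and 289 RPM in the wt ones, against 2317 RPM in the brm input and 2119 RPM in the wt input.

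To find where the mark differed between genotypes, reads per bin were compared with the quasi-likelihood test of edgeR over all 11748 bins. In the pericentromeres 30 bins were higher in brm (1.01% of 2976) and 6 were lower (0.202%). Over the whole genome 1.25% of the bins were higher in brm and 0.792% were lower. The share of higher bins was thus near that of the genome and the share of lower bins below it. The share of calls that were higher was 83.3% in the pericentromeres and 61.3% over all bins, a difference that was not tested. Of the 30 higher bins 10 changed at least 2-fold, and of the 6 lower bins 3 did. The median log2 fold change was 0.10 over the pericentromeric bins and -0.01 over the arms, and 62.0% of the pericentromeric bins had a fitted value above 0, against 51.7% of all bins.

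These counts depended on single libraries. They were 4 higher and 1 lower without brm replicate 1, 6 and 1 without brm replicate 2, 121 and 24 without wt replicate 1, and 71 and 26 without wt replicate 2. With reads reduced to 1 per position and strand, 171 bins were higher and 26 lower, and 28 of the 30 higher and 5 of the 6 lower bins remained among them. TMM scaling kept 20 of the 30 higher and all 6 lower bins, and an input offset kept 23 and 5.

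Of the 30 higher bins 15 held a common region in both genotypes, 8 in brm alone and 7 in neither, and 25 held a protein-coding gene. Of the 6 lower bins 3 held a common region in wt alone, 2 in both and 1 in neither. The higher bins were found on every chromosome, with 9 on chromosome 3 and 8 on chromosome 5. The lower ones included 3 on chromosome 4 and none on chromosome 2. All 36 called bins had brm libraries that did not overlap the wt libraries. Non-overlap alone was common, since 827 pericentromeric bins (27.8%) were higher and 375 (12.6%) lower in brm without overlap, against 23.2% and 19.3% of all bins.

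**Figure D3:**
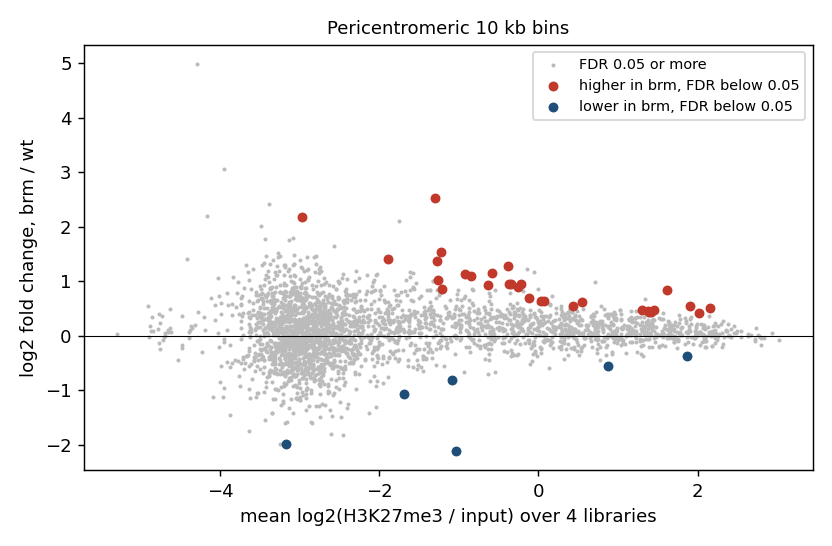
Log2 fold change between brm and wt from the edgeR fit against the mean log2 ratio of H3K27me3 to input over the 4 H3K27me3 libraries, 1 point per pericentromeric bin. Red points mark the 30 bins higher and blue points the 6 bins lower in brm at an adjusted p below 0.05; most red points lie to the right of -2 on the horizontal axis.

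The strongest of the higher bins, at 12660001-12670000 on chromosome 5, had 59.0 and 63.5 RPM in brm and 10.04 and 11.2 RPM in wt. Its log2 fold change was 2.53 ± 0.26 (SE; edgeR, adjusted p = 6.53e-08). It holds AT5G33390, which encodes a glycine-rich protein, and 3 pseudogenes. Over the whole bin the brm libraries lay near input, with 64.3 RPM in the brm input and 62.0 RPM in the wt input. A second bin nearby, at 12700001-12710000, contains only the pseudogenes AT5G33420 and AT5G33422. It had 42.0 and 42.0 RPM in brm and 11.3 and 17.6 RPM in wt (log2 fold change 1.54 ± 0.29, edgeR, adjusted p = 0.00212), although no common region lies in it. Both genotypes lay below input there, with 57.8 RPM in the brm input and 56.1 RPM in the wt input.

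HB23, a homeobox gene, lies in a bin at 15910001-15920000 of chromosome 5 with 47.0 and 43.1 RPM in brm and 13.4 and 21.1 RPM in wt (log2 fold change 1.38 ± 0.28, edgeR, adjusted p = 0.00384). This bin too lay below input in both genotypes, with 57.3 RPM in the brm input and 77.1 RPM in the wt input. The bin with the phloem protein gene PP2-A4 on chromosome 1, at 12320001-12330000, was strongly marked in both genotypes. It had 275 and 289.6 RPM in brm and 201 and 183 RPM in wt (log2 fold change 0.55 ± 0.11). The bins on chromosome 5 at 12700001 and 15910001 and the PP2-A4 bin lost the call when either brm library was left out (edgeR, adjusted p from 0.0506 to 0.2004).

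Among the lower bins, that at 2110001-2120000 of chromosome 4 holds RbcX1, a chaperonin-like gene, and AT4G04320, annotated as a malonyl-CoA decarboxylase. It had 3.54 and 4.64 RPM in brm and 15.2 and 17.2 RPM in wt (log2 fold change -1.99 ± 0.48, edgeR, adjusted p = 0.0195), far below the 71.9 RPM of the brm input and the 76.5 RPM of the wt input in that bin. It lost the call with reads reduced to 1 per position and strand and when either brm library was left out (edgeR, adjusted p from 0.0596 to 0.386). The bin at 10350001-10360000 of chromosome 3, with the quinone oxidoreductase gene NQR and the kelch-repeat gene AT3G27910, had 31.5 and 33.3 RPM in brm and 55.5 and 57.7 RPM in wt (log2 fold change -0.80 ± 0.22, edgeR, adjusted p = 0.0477). This bin lay below input in both genotypes, with 82.8 RPM in the brm input and 99.6 RPM in the wt input. Its call was lost without brm replicate 1, brm replicate 2 or wt replicate 2, with the input offset and without the read shift (edgeR, adjusted p from 0.0521 to 0.582).

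H3K27me3 islands were then called in each library against the input of its genotype. The pericentromeres held 771 and 768 islands in brm and 799 and 754 in wt. The islands covered 3.44 and 3.55 Mb in brm and 3.02 and 2.96 Mb in wt (3.49 ± 0.0755 Mb in brm and 2.99 ± 0.0430 Mb in wt, SD, n = 2 each; exact permutation test, p = 0.333, the smallest possible). The mean covered length was 1.17 times that of wt in the pericentromeres and 1.097 times in the arms. The regions common to both replicates numbered 757 in brm and 767 in wt, and covered 3.18 Mb in brm and 2.69 Mb in wt. The H3K27me3 libraries were then thinned to 2115598 distinct reads each and the inputs to 4369915 each. After this the common regions covered 3.002 Mb in brm and 2.69 Mb in wt. The brm to wt ratio of the covered length was then 1.12 in the pericentromeres and 1.06 in the arms. The part of read depth and duplication in the remaining difference was not tested.

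The common regions of the 2 genotypes merged into 780 pericentromeric regions, out of 5322 in the genome. Of these 659 (84.5%) held a common region of both genotypes, 83 (10.6%) of brm alone and 38 (4.87%) of wt alone. In the arms 7.29% of 4542 regions were found in brm alone and 4.98% in wt alone. The median length was 1400 bp for the pericentromeric regions of brm alone, 900 bp for those of wt alone and 3400 bp for those of both. Of the shared regions 441 were longer in brm, 86 longer in wt and 132 equal. In the arms the lean was the same way, with 2359 of 3985 shared regions longer in brm, 713 longer in wt and 913 equal. These counts come from the islands before thinning, when the brm libraries had more distinct reads. A protein-coding gene was overlapped by 622 of the 780 regions (79.7%), only pseudogenes by 70 (8.97%), and neither by 88 (11.3%). In the arms 1.63% of the regions overlapped pseudogenes only.

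The 5 longest regions had similar levels in brm and wt. The longest, 27200 bp at 16300801-16328000 of chromosome 3, had 1102 and 1188 RPM in brm and 1070 and 1009 RPM in wt. It covers 8 protein-coding genes, among them AT3G44780, annotated as a cysteine proteinase. The second, at 17486801-17510000 of chromosome 1, covers the beta-glucosidase gene BGLU34, the purine permease gene PUP19 and the cytochrome P450 gene CYP96A8, with 959 and 903 RPM in brm and 881 and 921 RPM in wt. The other 3, on chromosomes 2, 5 and 3, were between 21000 and 21200 bp long and had fitted log2 fold changes of 0.15, 0.08 and 0.01. None of the 5 passed the test (edgeR, adjusted p from 0.220 to 0.943).

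Over the 780 pericentromeric regions 15 were higher (1.92%) and 5 lower (0.641%) in brm, against 2.14% higher and 1.52% lower over all 5322 regions. The share of higher regions was near that of all regions and the share of lower ones below it. The median log2 fold change was 0.09 in the pericentromeres and -0.03 in the arms. Of the 83 regions of brm alone 7 passed as higher, of the 38 regions of wt alone 3 passed as lower, and of the 659 shared ones 8 passed as higher and 2 as lower. Region membership and this test used the same libraries, so the direction within the first 2 classes is fixed by their choice. Without brm replicate 1 the counts were 4 higher and 2 lower, without brm replicate 2 they were 5 and 1, without wt replicate 1 they were 22 and 5, and without wt replicate 2 they were 16 and 4. The estimated common scaling by TMM gave 24 higher and 6 lower regions, and DESeq2 gave 26 and 6; all 20 regions remained called in the same direction under each.

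**Figure D4:**
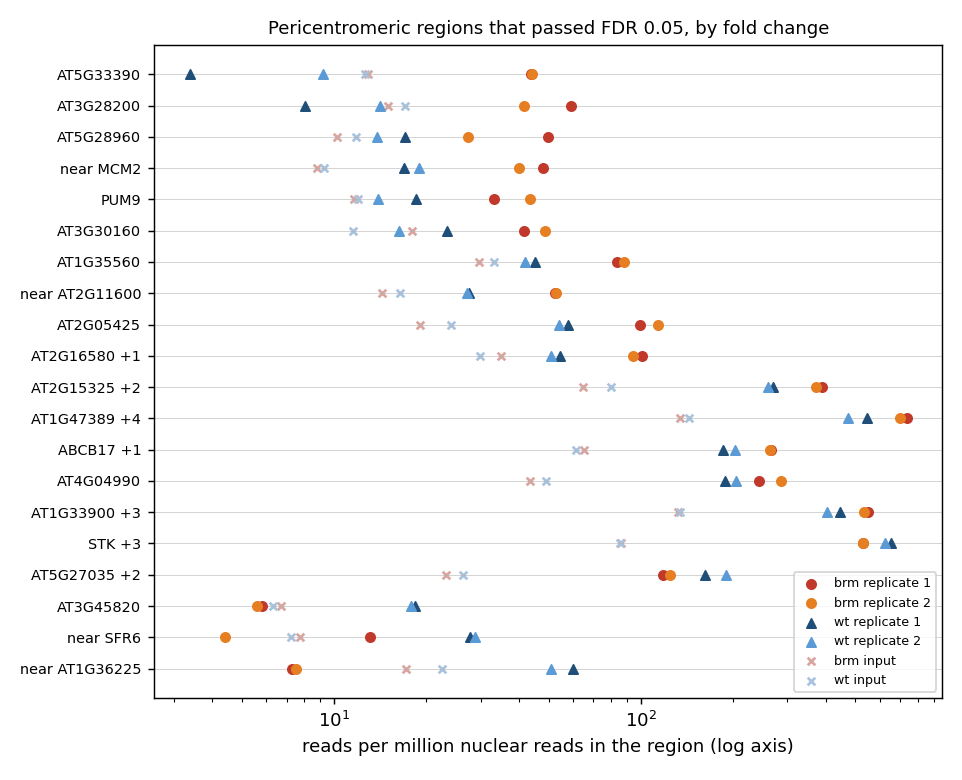
RPM in each of the 20 pericentromeric regions that passed the test (log axis), ordered by fold change with the highest at the top and labelled by a gene they overlap or, for "near", the nearest gene; "+1" and the like count further genes. Circles are the 2 brm libraries, triangles the 2 wt libraries and crosses the inputs; circles lie right of triangles in the 15 upper rows and left of them in the 5 lower ones.

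The region over AT5G33390, at 12661801-12663200 of chromosome 5, was found in brm alone. It had 43.7 and 44.1 RPM in brm and 3.39 and 9.17 RPM in wt, against 12.9 RPM in the brm input and 12.6 RPM in the wt input. The brm libraries stood above input and the wt libraries below it (log2 fold change 2.80 ± 0.39, edgeR, adjusted p = 0.000189). This call held in each alternative, also without any 1 library.

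The region over AT3G28200, a peroxidase gene, at 10517201-10519000 of chromosome 3, was likewise found in brm alone. It had 59.1 and 41.5 RPM in brm and 8.06 and 14.1 RPM in wt, against 15.0 RPM in the brm input and 17.03 RPM in the wt input. Its log2 fold change was 2.18 ± 0.33 (edgeR, adjusted p = 0.000333), and it too held in each alternative.

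With smaller standard errors, and so able to pass at smaller changes, the longer called regions rose by less. That at 17377601-17394800 of chromosome 1 covers AT1G47390, annotated as an F-box protein, MIR5664, which encodes a microRNA precursor, and the uncharacterized genes AT1G47389, AT1G47395, AT1G47400 and AT1G47410. It had 735 and 698 RPM in brm and 544 and 473 RPM in wt (log2 fold change 0.50 ± 0.08, edgeR, adjusted p = 0.000953, in each alternative called). Common regions spanned 17200 bp of it in brm and 11800 bp in wt. The change was uneven within it, since the 10 kb bin at 17380001-17390000 had 329 and 357 RPM in brm and 195 and 188 RPM in wt (log2 fold change 0.84 ± 0.11). The region at 6669001-6678000 of chromosome 2, over the lipid-transfer protein gene AT2G15325 and the glycine-rich protein gene AT2G15340, had 388 and 373 RPM in brm and 269 and 260 RPM in wt (log2 fold change 0.53 ± 0.10, edgeR, adjusted p = 0.00310). Without brm replicate 1 its adjusted p was 0.118.

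Regions that overlap regulatory genes were also among those that rose, although the regulatory genes themselves did not pass as genes. At 13116601-13120400 of chromosome 1, overlapping AT1G35560, which encodes a transcription factor of the TCP family, there were 83.7 and 87.8 RPM in brm and 45.1 and 41.9 RPM in wt (log2 fold change 0.98 ± 0.20, edgeR, adjusted p = 0.00601). Common regions covered 3800 bp there in brm and 1000 bp in wt. AT1G35560 itself had 14.8 and 12.6 RPM in brm and 5.25 and 5.41 RPM in wt (edgeR, adjusted p = 0.504). Its brm values lay near the 13.9 RPM of the brm input, and common regions covered 45.0% of the gene in brm. The pseudogene AT1G35570, in the same region, had 37.7 and 49.8 RPM in brm and 31.9 and 27.7 RPM in wt (edgeR, adjusted p = 0.626). The region at 7184401-7189000 of chromosome 2 overlaps AT2G16580, a SAUR-like auxin-responsive gene, and had 100.9 and 94.3 RPM in brm and 54.5 and 50.8 RPM in wt (log2 fold change 0.89 ± 0.19, edgeR, adjusted p = 0.00825). AT2G16580 itself had 63.2 and 60.3 RPM in brm and 43.2 and 40.9 RPM in wt (edgeR, adjusted p = 0.529). The region spanned 4600 bp in brm and 800 bp in wt. Both lost the call when either brm library was left out (edgeR, adjusted p from 0.0970 to 0.219).

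The region on chromosome 2 with the 4 telobox-like matches, at 3528201-3531600, overlaps only the lncRNA gene AT2G05425 and lies near the mitochondrial block. It had 99.3 and 113 RPM in brm and 57.9 and 53.9 RPM in wt (log2 fold change 0.93 ± 0.18, edgeR, adjusted p = 0.00507, or 0.170 without brm replicate 2). A region of 1200 bp at 16968201-16969400 of chromosome 1, 814 bp from MCM2, a gene of the replicative helicase, had 47.8 and 40.0 RPM in brm and 16.9 and 18.9 RPM in wt. This region was found in brm alone, so its direction was fixed by that choice. Its log2 fold change was 1.29 ± 0.28 (edgeR, adjusted p = 0.0117, and 0.287 without brm replicate 1 or 0.0717 without brm replicate 2).

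The other 7 higher regions had log2 fold changes from 0.35 to 1.32. They overlap PUM9, which encodes an RNA-binding pumilio protein, the fucosyltransferase gene AT5G28960, the transporter genes ABCB17 and ABCB18, AT4G04990, PP2-A4 with its neighbours, and the uncharacterized gene AT3G30160, and 1 of them, on chromosome 2, overlaps no annotated gene. The PUM9 region had 33.3 and 43.6 RPM in brm and 18.4 and 13.9 RPM in wt. That region, those over AT5G28960 and AT3G30160 and the one without a gene were found in brm alone. Their direction was fixed by that choice. Each of these 7 lost its call when at least 2 of the 4 libraries were left out in turn.

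Among the lower regions the clearest was intergenic. At 13603001-13605400 of chromosome 1 there were 7.30 and 7.49 RPM in brm and 59.9 and 50.9 RPM in wt, against 17.1 RPM in the brm input and 22.5 RPM in the wt input. The wt libraries stood above input and the brm libraries below it (log2 fold change -2.90 ± 0.30, edgeR, adjusted p = 3.17e-06), and the call held in each alternative. The nearest gene is the pseudogene AT1G36225, 1240 bp away. Common regions covered 2400 bp there in wt and none of it in brm.

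The remaining lower regions were weaker. The region at 16839801-16840400 of chromosome 3, overlapping the uncharacterized gene AT3G45820, had 5.84 and 5.59 RPM in brm and 18.3 and 17.8 RPM in wt. The region at 2496401-2497400 of chromosome 4, 198 bp from SFR6, a gene required for freezing tolerance, had 13.1 and 4.4 RPM in brm and 27.7 and 28.7 RPM in wt. The regions at AT3G45820 and SFR6 were found in wt alone, so their direction was fixed by that choice. The region at 9516401-9519400 of chromosome 5, over a transcribed pseudogene, had 118 and 124 RPM in brm and 162 and 189 RPM in wt. The region at 6233001-6245400 of chromosome 4 covers STK (SEEDSTICK), a MADS-box gene that specifies ovule identity, and had 529 and 528 RPM in brm and 655 and 625 RPM in wt (log2 fold change -0.28 ± 0.08, edgeR, adjusted p = 0.0460). Each of these 4 calls was lost without brm replicate 2, and each also without at least 2 of the other libraries, the edgeR adjusted p then lying between 0.0660 and 0.453.

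The median GC content was 33.9% in the 15 higher regions, 33.5% in the 5 lower ones and 34.6% in all 780. Over bins it did move with the fitted change, since the median log2 fold change was 0.17 in the 747 pericentromeric bins with a GC content of at most 33% and 0.03 in the 744 bins with at least 38.7%. Its part in the results was not tested.

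Of the 8140 genes whose midpoint lies in the pericentromeres, 3383 were protein-coding and 3777 were pseudogenes. A gene counted as marked where 50% or more of its length lay in common regions. This held for 800 protein-coding genes in brm (23.6%) and 718 in wt (21.2%), close to the 22.0% in brm and 21.1% in wt of the arms. In the pericentromeres 692 were marked in both genotypes, 108 in brm alone and 26 in wt alone. The arms leaned the same way, with 4862 marked in both, 438 in brm alone and 206 in wt alone. The common regions used here were called before thinning. Pseudogenes differed from those of the arms, with 139 marked in brm (3.68%) and 127 in wt (3.36%), against 26.5% in brm and 25.6% in wt of the 1066 pseudogenes of the arms. Of 49 pericentromeric genes with transposon words in their annotation none was marked in either genotype. These need not be all transposon genes of the intervals. TA3, a retrotransposon copy, is annotated as a pseudogene that encodes an uncharacterized protein, so the pseudogenes counted above can include transposon genes. Of 618 lncRNA genes 142 were marked in brm and 130 in wt.

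Gene families varied within the pericentromeres. F-box genes, which encode substrate receptors of ubiquitin ligases, were marked most often among the larger families, with 61 of 107 in brm and 59 in wt. Cytochrome P450 genes followed, with 12 of 24 in brm and 13 in wt. Among transcription factors 7 of 16 NAC genes were marked in brm and 6 in wt, 9 of 26 MYB genes in brm and 7 in wt, 5 of 21 AGAMOUS-like MADS-box genes in brm and 4 in wt, and 1 of 8 WRKY genes in each genotype. The shares stood on either side of those of the arms. In brm 23.8% of the pericentromeric AGAMOUS-like genes were marked, against 57.1% of 70 in the arms, and 12.5% of the WRKY genes, against 52.7% of 74 in the arms. F-box genes had 57.0% in the pericentromeres and 50.9% in the arms of brm, cytochrome P450 genes 50% and 42.0%, and kinase genes 22.2% and 12.0%. Genes for microRNA precursors had 16.9% in the pericentromeres and 40.6% in the arms of brm. These differences were not tested. Of 67 genes for defensin-like, cysteine-rich or self-incompatibility peptides 16 were marked in brm and 15 in wt. Of 99 kinase genes 22 were marked in each genotype, and of 27 disease resistance genes 5 in brm and 4 in wt. No member of these families passed the test between genotypes in the pericentromeres.

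**Figure D5:**
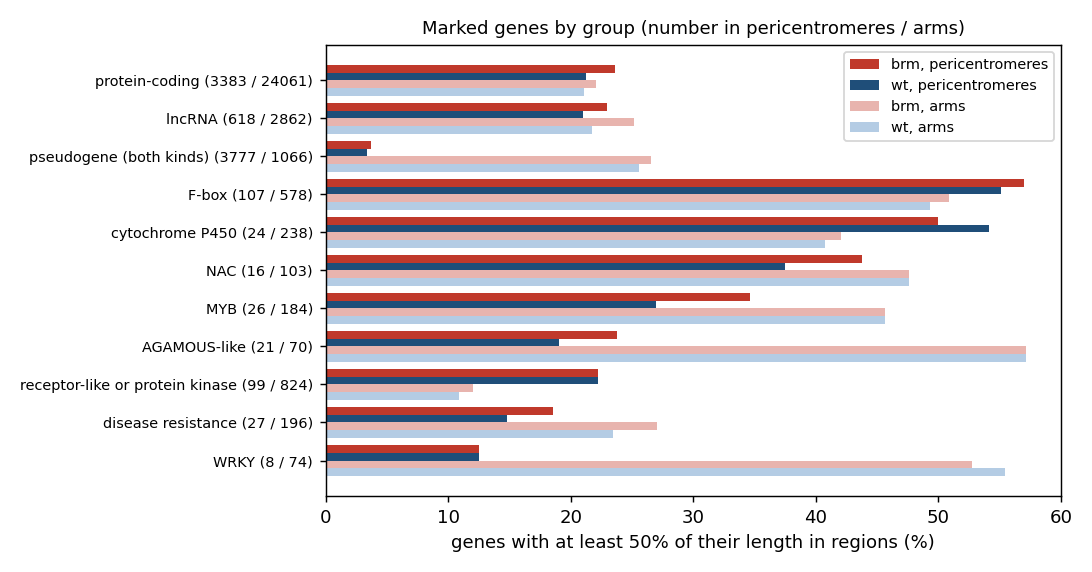
Share of genes (%) with at least 50% of their length in common H3K27me3 regions, by biotype and annotated family, in the pericentromeres (dark bars) and arms (pale bars), with brm above wt in each pair; the numbers of genes are given as pericentromeres / arms. Among the groups drawn, pseudogenes, AGAMOUS-like and WRKY genes show wide gaps, with lower shares in the pericentromeres than in the arms.

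Of the 8140 pericentromeric genes 5602 had enough reads to be tested. Of these 3 were higher in brm (0.0536%) and 1 was lower (0.0179%), against 0.0777% higher and 0.0971% lower over all 30906 genes tested. Both shares thus lay below those of all genes. Leaving out a wt library gave more calls, 54 higher and 56 lower without wt replicate 1, and 36 and 34 without wt replicate 2, whereas without brm replicate 1 there was 1 higher gene. Without brm replicate 2 there were 3 higher and 1 lower, of which 2 of the 3 higher genes and not the lower one were the same as with all libraries. AT5G33390, at 12661708-12663496 on the plus strand of chromosome 5, had 51.4 and 48.2 RPM in brm and 3.503 and 9.17 RPM in wt (log2 fold change 2.97 ± 0.37, edgeR, adjusted p = 0.000442). AT3G28200, at 10517977-10519516 on the plus strand of chromosome 3, had 38.8 and 31.6 RPM in brm and 6.89 and 11.4 RPM in wt (log2 fold change 1.94 ± 0.35, edgeR, adjusted p = 0.0203). Its adjusted p was 0.433 without brm replicate 1 and 0.0539 without brm replicate 2. AT5G33390 passed in each alternative.

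The remaining pair of calls rested on few molecules. AT1G43660, a pseudogene of chromosome 1, had 54 and 27 reads in brm and none in either wt library, and the brm reads lay at 6 distinct positions. AT3G06755, a lncRNA gene of chromosome 3, had 1 and 0 reads in brm and 44 and 39 in wt, at 15 distinct positions in wt. Neither is covered by a common region, and DESeq2 gave neither an adjusted p. The call of AT1G43660 was lost without brm replicate 1, and that of AT3G06755 without either brm library, with TMM scaling and without the read shift (edgeR, adjusted p from 0.0565 to 0.894). With reads reduced to 1 per position and strand, neither gene had enough reads to be tested.

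Other marked genes with large fitted changes did not pass. AT1G43810, a short protein-coding gene of chromosome 1, had 10.9 and 9.63 RPM in brm and 1.98 and 1.99 RPM in wt (edgeR, adjusted p = 0.230; DESeq2, adjusted p = 0.0286). AT3G27910, the kelch-repeat gene named above, had 9.17 and 14.3 RPM in brm and 27.0 and 30.7 RPM in wt (edgeR, adjusted p = 0.235). AT3G27910 stayed without a call in 9 of 12 alternatives and passed as lower in the others, among them that without wt replicate 1. HB23 had 32.7 and 30.1 RPM in brm and 7.36 and 16.6 RPM in wt (edgeR, adjusted p = 0.238). The other large fitted changes were those of the short RNA genes AT1G06617, AT3G07585, AT4G05655, AT4G04905, AT4G05705 and AT4G05055, each under 10 RPM in every library, with adjusted p from 0.499 to 0.704.

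Several developmental regulators in the intervals stood far above input in both genotypes. KAN2, a regulator of organ polarity, had 266 and 274 RPM in brm and 297 and 238 RPM in wt, with 40.7 RPM in the brm input and 39.6 RPM in the wt input. The homeobox gene KNAT1, which acts in the shoot meristem, had 172 and 188 RPM in brm and 225 and 219 RPM in wt. The MADS-box gene ANR1 had 278 and 255 RPM in brm and 289 and 265 RPM in wt. MYB21, a regulator of stamen development, had 195 and 217 RPM in brm and 224 and 215 RPM in wt. NST3, a NAC factor of secondary walls, had 155 and 139.5 RPM in brm and 135 and 179.5 RPM in wt. These 5 genes were wholly or almost wholly covered by common regions in both genotypes, and none passed the test (edgeR, adjusted p from 0.662 to 0.995).

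GL1, the trichome MYB gene, had 99.2 and 81.7 RPM in brm and 108 and 98.5 RPM in wt. The defence gene PR1 had 63.3 and 64.0 RPM in brm and 67.8 and 109.9 RPM in wt. SEP4, a floral MADS-box gene, had 95.6 and 83.0 RPM in brm and 141 and 103 RPM in wt. PR1 and SEP4 did not pass (edgeR, adjusted p = 0.604 and 0.573), but PR1 passed as lower without wt replicate 1 (adjusted p = 0.00306) and SEP4 without wt replicate 2 (adjusted p = 0.0115). TT2, a MYB gene of seed-coat tannin synthesis, was covered by common regions over 82.0% in brm and not at all in wt, yet its levels of 24.5 and 19.7 RPM in brm and 19.6 and 17.2 RPM in wt differed by little (edgeR, adjusted p = 0.918). RAP2.6 and ORE1 held no common region in either genotype and lay near input. Mean RPM over input RPM was 0.86 in brm and 1.32 in wt for RAP2.6, and 0.78 and 1.13 for ORE1. These ratios stood above those of the background gene CRY1 below, 0.090 in brm and 0.127 in wt.

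Genes without the mark set the background. CRY1, the cryptochrome gene, had 3.34 and 3.81 RPM in brm and 4.67 and 4.86 RPM in wt, against 39.5 RPM in the brm input and 37.5 RPM in the wt input. RD21A and CBP80 lay equally far below input, and TA3, a retrotransposon copy, had 5.32 and 1.90 RPM in brm and 1.63 and 2.98 RPM in wt. The imprinted MADS-box gene AGL36 had at most 2.19 RPM in any H3K27me3 library, AGL90 at most 1.87 RPM, and both had too few reads to be tested.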

How the data were processed

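H3K27me3 ChIP-seq and input libraries of brm and wt seedlings were used. The authors sheared the chromatin by sonication, mapped the reads with Bowtie 0.12.7 to TAIR10, kept those that mapped perfectly and to a single place, and called domains with SICER 1.1, according to the study's methods and the submitters' processing notes. The deposited files list 1 read of 37 bp per line, so the values used are counts of deposited reads, not normalized by the authors and with duplicates kept. Each deposited line also has a score, which is 0 throughout and was set aside. Repeats lose reads through the requirement for a single place, and 134 pericentromeric bins with few input reads were left out.

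Reads were counted by their 5′ end moved 75 bp inwards. Chromosome lengths matched TAIR10.1, whose RefSeq annotation gave genes and names. Islands were called with a rebuilt form of SICER (1 read per position and strand, 200 bp windows, gap 600 bp, island E-value 100, Poisson test against input, FDR 0.01). A region belonged to the pericentromere by its midpoint. Bins, regions and genes were compared with edgeR 4.0.16 (R 4.3.3), quasi-likelihood F test on the 4 H3K27me3 libraries, total nuclear reads as library size, filterByExpr for genes only, Benjamini-Hochberg over all features, FDR 0.05. DESeq2 1.42.0 was an alternative. The fit was tested on simulated data. Single values were compared with exact permutation tests. Alternatives were 1 read per position and strand, TMM, an input offset, DESeq2, a replicate block, no shift, other filters and bin sizes, and leaving out each library.

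Bins and regions named are those past the threshold, up to 8 in each direction by adjusted p, with the 5 bins of highest input ratio and the 5 longest regions. Genes named are a fixed list, the genes past the threshold and the 4 largest changes in each direction among marked genes without overlap; the genes of a called bin or region are named with it. HB23 as a gene was named after its values were seen. The members and lists were chosen with earlier results of these data known.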

Additional observations from a re-analysis of the deposited data

How the results depend on the processing

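Reads reduced to 1 per position and strand gave 171 higher and 26 lower pericentromeric bins, 72 and 18 regions and 15 and 2 genes. With TMM scaling added to that, chosen after seeing the data, there were 132 and 14 bins, 88 and 21 regions and 24 higher genes. An input offset gave 136 and 15 bins, 109 and 32 regions and 30 and 39 genes. TMM scaling alone gave 20 higher bins, 24 higher regions and 0 lower genes, DESeq2 gave 26 higher regions and 9 and 0 genes, counting without the shift gave 0 lower genes, 5 kb bins gave 3 lower bins, and testing all genes gave 14 and 9. The lower gene call was lost under TMM scaling and without the shift, and DESeq2 gave that gene no adjusted p. Same-numbered libraries did not deviate together (Pearson's r across features of the deviations from the group means 0.040 for bins, 0.070 for regions and 0.029 for genes), and with a replicate block 54 and 12 bins, 36 and 8 regions and 14 and 4 genes were called. Leaving out 1 library in turn gave 4 to 121 higher and 1 to 26 lower bins, 4 to 22 and 1 to 5 regions and 1 to 54 and 0 to 56 genes. A group left with 1 library was assumed to vary like the other.

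The median input ratio differed by -0.029 between brm and wt and reversed to 0.030 against the sum of both inputs; leaving out 1 library gave -0.090 to 0.033. The median log2 fold change of pericentromeric genes, 0.05, reversed to -0.0823 with the input offset; leaving out 1 library gave -0.0412 to 0.147, the reversal being without brm replicate 1. The difference in the share of reads stayed between 0.806 and 1.105 percentage points, and the covered regions kept their numbers and lengths within 1.5 times under FDR 0.001, a gap of 200 bp, thinning and single replicates. Of 240 checks of the 20 called regions 194 kept the call and 46 lost it, none with a change of direction. The cause of these moves was not tested. Of 8140 genes 5602 passed the filter on low counts, which was applied to genes only.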

Other observations

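Outside the named bins, the bins with the largest fitted changes that did not pass the test were poor in reads and held pseudogenes or no annotated gene. The bin at 15180001-15190000 of chromosome 1 held 18 and 22 reads in brm and 1 and 0 in wt (edgeR, adjusted p = 0.0591). The bin at 1840001-1850000 of chromosome 4 held 49 and 75 reads in brm and 10 and 13 in wt (edgeR, adjusted p = 0.0571). In the other direction, the bin at 3860001-3870000 of chromosome 4 held 19 and 10 reads in brm and 46 and 66 in wt (edgeR, adjusted p = 0.143). These 3 bins were chosen after their values were seen.

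Among the genes of the long chromosome 1 region over AT1G47389 to AT1G47410, the difference between genotypes was uneven. AT1G47400 had 32.1 and 41.4 RPM in brm and 16.5 and 14.0 RPM in wt, and the lncRNA gene AT1G07367 had 52.5 and 44.2 RPM in brm and 19.9 and 20.7 RPM in wt. AT1G47389, at the start of the region, had 90.3 and 63.1 RPM in brm and 82.1 and 76.7 RPM in wt, so its libraries overlapped. No single gene of this region passed the test (edgeR, adjusted p = 0.144 for AT1G47400 and 0.0588 for AT1G07367).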
